A study of Mus musculus with 19 samples.

Results

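The insulin-like growth factor (IGF) family was followed through 6 populations of sorted mouse skeletal cells. The genes were the ligands Igf1 and Igf2, the receptor Igf1r and the binding proteins Igfbp2, Igfbp3, Igfbp4, Igfbp5, Igfbp6 and Igfbp7, taken by name. These 9 genes, of 18193 measured, were represented by 26 probe sets of 45037. All of them were tested, since no filter on low values was used.

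Cells came from the fore and hind limbs of a pooled litter at postnatal day 3. The genotype field names wild-type mice, while the protocol speaks of GFP-labelled mice. Every neonatal population had been sorted as CD45-Ter119-Tie2-AlphaV+, a gate against blood and endothelial cells and for integrin alpha V, although the protocol's antibody list does not name Ter119. Thy, 6C3 and CD105 then split these cells 6 ways, with 3 arrays each. Cells without Thy and 6C3 were Thy-6C3-CD105- or Thy-6C3-CD105+. Those with 6C3 were Thy-6C3+CD105- or Thy-6C3+CD105+, and those with Thy were Thy+6C3-CD105- or Thy+6C3-CD105+. The 18 neonatal arrays and 1 array labelled adult Thy+6C3+CD105+ carried RNA that had been amplified in a pair of rounds. Nothing in the labels says that the 3 arrays of a population came from separate litters, so p-values measure only the spread between these arrays, which may be technical.

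IGF1 and IGF2 are secreted peptides that bind the IGF1 receptor, a tyrosine kinase at the cell surface that signals through insulin receptor substrates. IGF binding proteins hold the ligands in the matrix and in fluids, prolong their life and can block or deliver them, and proteases release the ligand by cutting these carriers. In the growing skeleton the ligands act on growth plate cartilage and on bone-forming cells, and osteoblasts and fibroblasts are known sources of binding proteins.

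Levels are log2 values, so a difference of 1 is a doubling, and a mean is given with the SD of 3 arrays. A step is the level in the population that carries an antigen minus that in the population that lacks it, with the SE of the limma fit. A gene that rose or fell in a step differed between separately sorted populations, and no cell was watched changing. A gene passed a test at a Benjamini-Hochberg adjusted p under 0.05 over all 18193 genes. Levels of different genes are not compared, because probes differ in brightness. A lower level in a sorted population can come from fewer cells that make the RNA or from less RNA per cell, and these cannot be told apart.

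The 4 genes that were higher in Thy+6C3-CD105- than in Thy-6C3-CD105- cells, Igf1, Igfbp2, Igfbp5 and Igfbp6, are shown with the 250 bases before their annotated start, because these members moved in the same direction. RefSeq windows (GRCm38.p6) were found for all 9 members, 13 windows in all, and the first window is printed for Igfbp2, which has more than 1. Capitals mark matches to the E-box CANNTG and the GC box GGGCGG on either strand, and the bases run 5′ to 3′ on the gene's own strand.
Igf1, chr10:87860861-87861110, plus strand: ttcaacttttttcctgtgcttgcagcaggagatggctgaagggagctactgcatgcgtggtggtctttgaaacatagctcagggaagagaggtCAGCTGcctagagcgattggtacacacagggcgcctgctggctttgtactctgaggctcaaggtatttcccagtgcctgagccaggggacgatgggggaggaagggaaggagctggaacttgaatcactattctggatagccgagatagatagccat
Igfbp2, chr1:72824230-72824479, plus strand: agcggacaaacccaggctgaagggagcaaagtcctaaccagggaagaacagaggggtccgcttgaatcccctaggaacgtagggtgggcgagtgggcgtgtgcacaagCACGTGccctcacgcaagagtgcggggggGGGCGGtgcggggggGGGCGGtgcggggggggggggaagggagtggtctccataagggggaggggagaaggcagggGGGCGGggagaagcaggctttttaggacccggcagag
Igfbp5, chr1:72874866-72875115, minus strand: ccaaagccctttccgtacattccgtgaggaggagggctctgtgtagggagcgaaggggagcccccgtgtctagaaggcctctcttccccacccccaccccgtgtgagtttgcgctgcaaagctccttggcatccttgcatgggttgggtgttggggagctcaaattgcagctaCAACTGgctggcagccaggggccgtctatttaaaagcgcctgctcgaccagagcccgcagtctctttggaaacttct
Igfbp6, chr15:102143936-102144185, plus strand: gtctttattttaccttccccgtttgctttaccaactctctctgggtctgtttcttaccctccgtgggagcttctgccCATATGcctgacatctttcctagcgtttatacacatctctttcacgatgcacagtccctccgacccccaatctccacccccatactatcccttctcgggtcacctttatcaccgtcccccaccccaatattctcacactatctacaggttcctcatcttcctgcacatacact

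The 4 sequences hold different E-box letters. They read CAGCTG in Igf1, CACGTG in Igfbp2, CAACTG in Igfbp5 and CATATG in Igfbp6, with 1 match each. Only the Igfbp2 window among these 4 held the GC box, with 3 matches. Over windows of 300 bases (250 before to 50 after the start), 72.3% of all 32851 RefSeq windows hold the E-box and 35.7% hold the GC box, against 9 and 5 of the 13 windows of the members. The TATAAA motif, also sought on either strand, lay in 2 of the 13, those of Igfbp4 and Igfbp6, and in 13.6% of all windows. In Igfbp6 it lay on the opposite strand and reads TTTATA on the gene's own strand. These matches are letters only, with no measurement of binding. In the RefSeq gene order, Igfbp2 and Igfbp5 are neighbours on chromosome 1 with no annotated gene between them and are read from opposite strands.

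On the neonatal arrays the sorting antigens' own genes ran with the labels for Thy and 6C3. Thy1 lay between means of 10.23 and 10.34 in the Thy+ populations and between 5.37 and 5.81 in the others, and Enpep, which encodes 6C3, between 10.84 and 10.97 in the 6C3+ populations and between 7.27 and 8.32 elsewhere. Replicates 2 and 3 of Thy-6C3+CD105- carry titles that name Thy+, but Thy1 stood at 5.81 ± 0.12 in that population. Eng, which encodes CD105, was at 8.49 to 8.64 in the CD105+ populations and 7.20 to 7.90 in the CD105- ones. Markers of other cells differed between the populations. The 9 chondrocyte markers averaged 12.08 to 12.42 on the Thy-6C3- arrays and 8.64 to 9.69 on the rest. The 7 pericyte and smooth muscle markers averaged 10.27 to 10.39 in Thy+6C3-CD105+ and 7.68 to 8.55 elsewhere, the 4 keratinocyte markers 7.17 to 8.03 in Thy+6C3-CD105- and 5.70 to 6.38 elsewhere, and the 8 tendon markers 10.87 to 11.41 in the Thy+ populations and 9.18 to 10.55 elsewhere. The 5 osteoblast markers measured, of 7 listed, averaged 8.45 to 9.41 on the Thy-6C3- arrays, 6.95 to 7.60 on the Thy+ arrays and 7.13 to 8.67 on the 6C3+ arrays. The 4 hypertrophic chondrocyte markers averaged 7.20 to 8.61 on the Thy-6C3- arrays and 4.47 to 5.77 on the rest. Not every gene followed the average of its list. Col1a1, an osteoblast marker, had its lowest means without Thy and 6C3 (12.64 and 13.14, against 13.8 to 13.98). Mmp13, a hypertrophic marker, had means of 7.42 and 7.98 with 6C3, against 7.34 and 6.51 without both antigens. Krt10, a keratinocyte marker, was highest in Thy+6C3-CD105+ (7.61), above its 7.35 for Thy+ cells lacking CD105. Scx, a tendon marker, peaked outside the Thy+ populations, with 6.54 for Thy-6C3+CD105-. The 6 blood and 7 endothelial markers averaged at most 6.65 and 5.85, below the median gene mean of 6.76, and Ptprc, Pecam1 and Cdh5 had means of 4.03 to 4.72, 4.61 to 5.45 and 5.06 to 5.29. Single markers of these lists still differed. Esam had a mean of 8.31 in Thy+6C3-CD105+ cells and 5.99 to 6.27 elsewhere (Thy step among CD105+ cells, adjusted p = 3.22e-07, limma). Tek, which encodes the gated antigen Tie2, was at 5.96 to 6.39 in the Thy+ populations and 4.79 to 4.97 elsewhere, and Laptm5 at 8.73 in Thy+6C3-CD105- and 6.38 to 7.26 elsewhere. The spread of cartilage, osteoblast, pericyte, keratinocyte and tendon markers and of these single genes moves with the population differences given below, and its part in them was not tested.

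Across the 6 populations, 5 of the 9 members passed the F-test: Igf1, Igf2, Igfbp2, Igfbp5 and Igfbp6 (10.1% of all genes passed, and 14.4% of genes above the median level). Igfbp2 had the widest spread, 3.09 between its highest and lowest population mean, followed by Igfbp6 with 2.25 and Igf1 with 1.93. Igfbp5 spread over 0.95 and Igf2 over 0.61. For Igf1r, Igfbp3, Igfbp4 and Igfbp7, which did not pass, the adjusted p values were 0.0844, 0.319, 0.283 and 0.370 and the spreads 0.46 to 0.68.

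**Figure D1:**
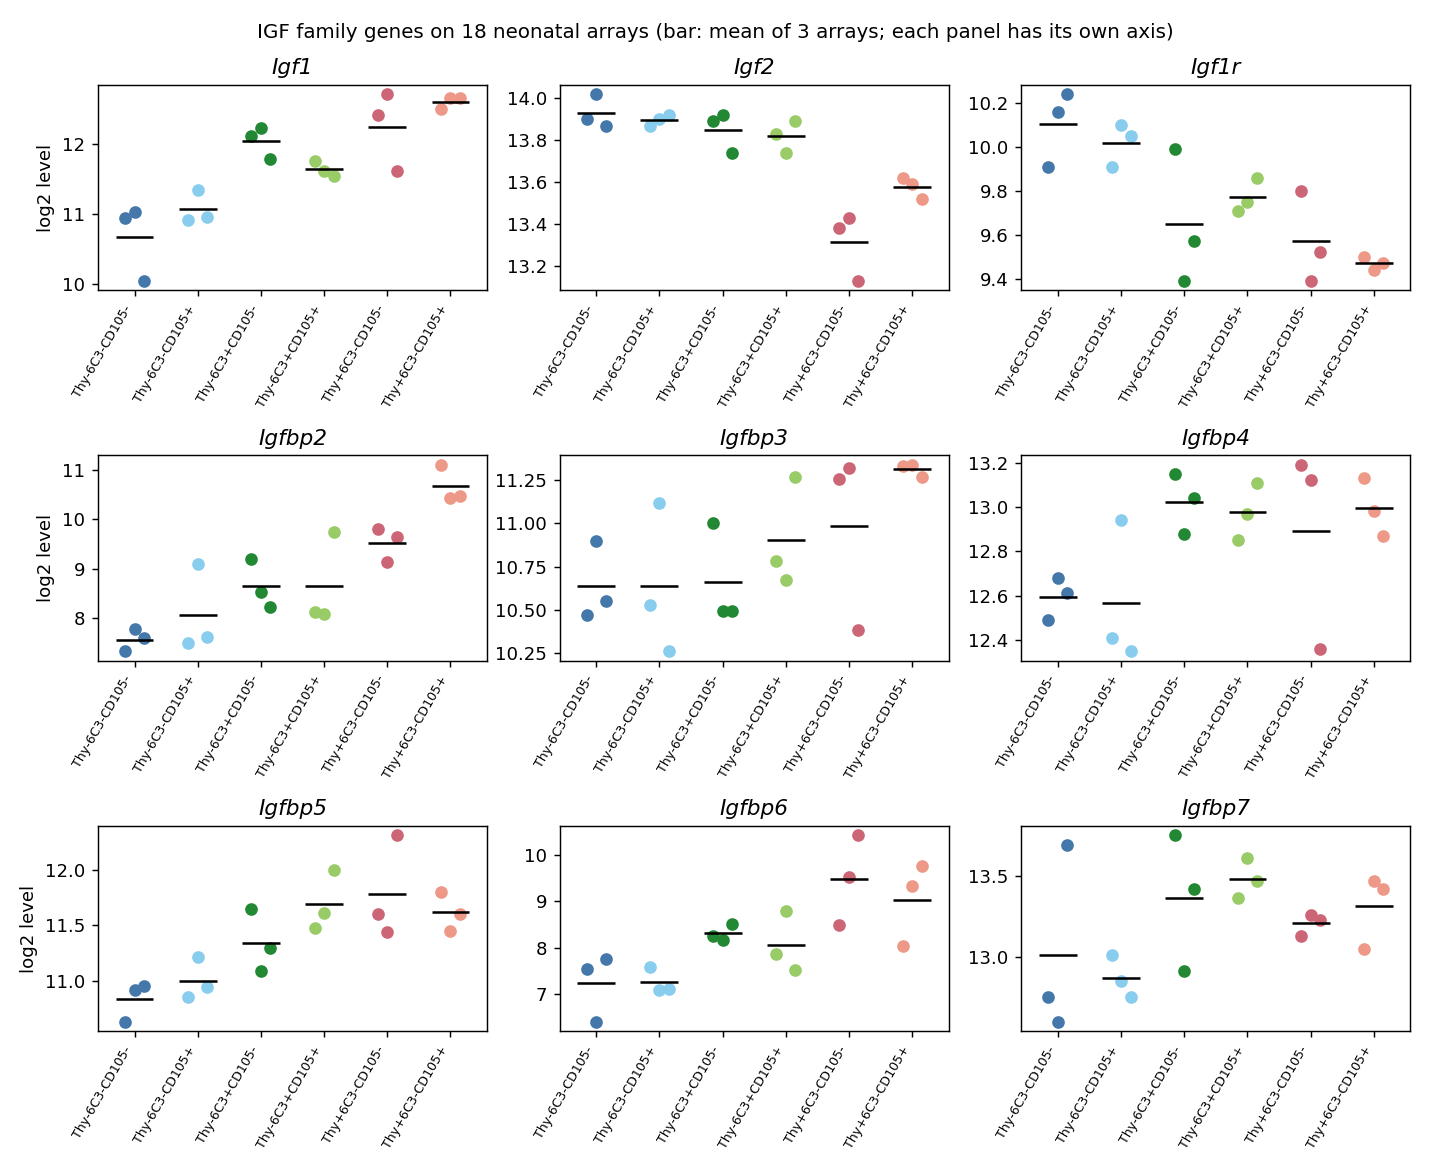
Log2 level of each of the 9 genes (y axis, 1 scale per panel) in the 6 neonatal populations (x axis), with 1 point per array and a bar at the mean of 3 arrays. Igf1, Igfbp2, Igfbp5 and Igfbp6 have their lowest mean in Thy-6C3-CD105- cells, and Igf2 has its lowest, 13.31, in Thy+6C3-CD105- cells.

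Igf1, the ligand through which growth hormone mainly acts and which bone and connective tissue cells also make, was high in Thy+ cells and low in Thy-6C3- cells. The 3 arrays of Thy+6C3-CD105+ read 12.50, 12.65 and 12.66, and those of Thy+6C3-CD105- read 12.41, 12.71 and 11.61. The Thy-6C3- arrays read 10.91, 11.35 and 10.96 with CD105 and 10.94, 11.03 and 10.05 without it. No Thy+ array overlapped a Thy-6C3- array. The means of the 6C3+ populations lay in between, with arrays at 11.76, 11.61 and 11.54 with CD105 and at 12.11, 12.23 and 11.78 without it. The F-test over the populations gave an adjusted p of 0.000285 (limma).

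In the Thy steps Igf1 was higher by 1.53 ± 0.26 among CD105+ cells (2.89-fold, adjusted p = 0.000847, limma) and by 1.57 ± 0.26 among CD105- cells (2.97-fold, adjusted p = 0.000624). The pair of steps differed by -0.04, with a 95% interval from -0.82 to 0.74. With 6C3, Igf1 rose by 1.37 ± 0.26 among CD105- cells (adjusted p = 0.0054), the only member that passed that step. That call was not kept when arrays were grouped by title (1.44, adjusted p = 0.105), with arrays scaled to a common median (1.13, adjusted p = 0.0953) or with only the compared populations fitted (adjusted p = 0.0525). Among CD105+ cells the 6C3 step was 0.56 ± 0.26 (adjusted p = 0.629). The order of the means ran from the Thy+ cells (CD105+, then CD105-) over the 6C3+ cells (CD105-, then CD105+) to the Thy-6C3- cells (CD105+, then CD105-), and no neighbours in this order passed the test.

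All 4 probe sets of Igf1 passed the F-test, and their correlations with the brightest one over the 18 arrays were between 0.80 and 0.91. All 4 rose with Thy at either CD105 state, where 3.88% of all probe sets passed with CD105 and 12.3% without it. They did not give 1 order within the Thy+ cells: the probe sets 1437401_at and 1434413_at were higher in Thy+6C3-CD105+ cells, by 0.36 and 0.22, while 1419519_at and 1452014_a_at were higher in Thy+6C3-CD105- cells, and none of these differences passed.

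Igf2, the imprinted growth factor that dominates before birth, ran the other way and over a narrow range. The Thy+6C3-CD105- arrays read 13.38, 13.43 and 13.13, and the Thy+6C3-CD105+ arrays 13.62, 13.59 and 13.52. All 12 arrays without Thy lay between 13.74 and 14.02, above all 6 arrays with it. Igf2 thus lay close to the top of the deposited scale, which ends at 14.6, on every neonatal array.

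Among CD105- cells Igf2 fell by 0.61 ± 0.10 with Thy (1.53-fold, adjusted p = 0.000546, limma), and it was also lower in Thy+6C3-CD105- than in Thy-6C3+CD105- cells, by 0.54 ± 0.10 (1.45-fold, adjusted p = 0.00634). Grouped by title, the latter gave -0.58 (adjusted p = 0.126), and with only these populations fitted its adjusted p was 0.328. Among CD105+ cells the Thy step of Igf2 was -0.32 ± 0.10 (adjusted p = 0.0725), and the difference between the steps was 0.30 (95% interval 0.00 to 0.60, adjusted p = 0.302). The second Igf2 probe set, 1415931_at, read much dimmer (8.73 on average), gave negative Thy steps of -0.89 and -0.66 and passed nothing (F-test adjusted p = 0.308). With the mean of both probe sets, Igf2 did not pass the F-test (adjusted p = 0.0629) or its Thy step (-0.64, adjusted p = 0.0703), nor was it called lower in Thy+6C3-CD105- than in Thy-6C3+CD105- cells (-0.88, adjusted p = 0.068). With a common median its Thy step among CD105- cells was -0.93 (adjusted p = 0.000917). In the order of means the 4 populations without Thy lay between 13.82 and 13.93, and no neighbours passed.

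Igf1r, the shared receptor of both ligands, was highest in Thy-6C3- cells. Its arrays read 9.91, 10.16 and 10.24 in Thy-6C3-CD105- cells and 9.91, 10.10 and 10.05 in Thy-6C3-CD105+ cells. In Thy+6C3-CD105+ cells they read 9.50, 9.44 and 9.47, and in Thy+6C3-CD105- cells 9.80, 9.39 and 9.52, so no Thy+ array reached a Thy-6C3- array. The 6C3+ populations held 9.71 to 9.86 with CD105 and 9.39 to 9.99 without it.

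The Thy step of Igf1r among CD105- cells was a fall by 0.53 ± 0.17 (1.45-fold, adjusted p = 0.0431, limma), and among CD105+ cells it was -0.55 ± 0.17 (adjusted p = 0.0719). With the values as deposited the former step was -0.93 (adjusted p = 0.00444) and with a common median -1.08 (adjusted p = 0.00445), where the median change of all genes was 0.09 and -0.05 in place of 0.13. The F-test of Igf1r passed with the values as deposited (adjusted p = 0.0293), a common median (0.0328), array weights (0.00774), a block for the spike-in sets (0.0293) and grouping by title (0.0463). With only the compared populations fitted, the adjusted p of the step was 0.195. The call was lost in 13 of the 18 fits without 1 array, namely without any one array of the 3 CD105+ populations or without replicate 2 or 3 of either compared population, where the adjusted p lay between 0.051 and 0.137. Of the 5 Igf1r probe sets none passed the F-test, and 1 of them, 1428967_at, fell by 1.44 ± 0.35 with Thy among CD105- cells (adjusted p = 0.0144 over all probe sets). Only 1 of the 5 had a positive estimate in that step, of 0.07.

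Igfbp2, a binding protein that prefers IGF2 and also binds cells and matrix through an RGD sequence, had the largest differences. The Thy+6C3-CD105+ arrays read 11.10, 10.42 and 10.47, above all 15 other neonatal arrays. The Thy+6C3-CD105- arrays followed with 9.81, 9.13 and 9.65, and the Thy-6C3-CD105- arrays were lowest with 7.34, 7.78 and 7.60. Some populations were uneven: Thy-6C3-CD105+ read 7.50, 9.09 and 7.62, and Thy-6C3+CD105+ read 8.14, 8.09 and 9.74. Thy-6C3+CD105- read 9.20, 8.53 and 8.23. In every population the highest Igfbp2 array was among those whose poly-A spike-in controls averaged below 5.90, as given further down. The part of this in the uneven readings was not tested.

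Igfbp2 rose with Thy by 2.59 ± 0.44 among CD105+ cells (6.03-fold, adjusted p = 0.000756, limma) and by 1.96 ± 0.44 among CD105- cells (3.88-fold, adjusted p = 0.006). It was also higher in Thy+6C3-CD105+ than in Thy-6C3+CD105+ cells, by 2.01 ± 0.44 (4.03-fold, adjusted p = 0.014). This call was not kept without replicate 1 of Thy+6C3-CD105+ (1.79, adjusted p = 0.088) or without replicate 1 (1.75, adjusted p = 0.0992) or 2 (1.73, adjusted p = 0.105) of Thy-6C3+CD105+. Within Thy+ cells the CD105+ population stood 1.14 ± 0.44 above the CD105- one, with no overlap of arrays, and did not pass (adjusted p = 0.161). In the order of means, again no neighbours passed, although 6 of the 15 pairs of populations did. The pericyte markers, which averaged 10.27 to 10.39 on the Thy+6C3-CD105+ arrays and 7.68 to 8.55 on the others, were highest in the same population as Igfbp2, and their part in this was not tested.

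Igfbp6, whose protein binds IGF2 far more tightly than IGF1, was highest in the Thy+ populations and uneven within them. Arrays of Thy+6C3-CD105- read 8.48, 9.53 and 10.42, and arrays of Thy+6C3-CD105+ read 8.03, 9.33 and 9.75. The Thy-6C3- arrays all lay lower, at 7.54, 6.41 and 7.75 without CD105 and 7.58, 7.10 and 7.11 with it. The 6C3+ populations held 8.26, 8.16 and 8.52 without CD105 and 7.86, 8.80 and 7.53 with it, overlapping the Thy+ arrays. The lowest array of each Thy+ population, at 8.48 and 8.03, had poly-A spike-in controls below 5.90. On these arrays the actin control probe sets read 1.87 and 1.51 higher at the 3′ than at the 5′ end. The other neonatal arrays had at most 1.47. The part of this in the Igfbp6 levels was not tested.

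In the Thy steps Igfbp6 rose by 2.25 ± 0.49 among CD105- cells (4.75-fold, adjusted p = 0.00486, limma) and by 1.77 ± 0.49 among CD105+ cells (3.41-fold, adjusted p = 0.0327). The latter call was lost without any one array of Thy-6C3-CD105+ (adjusted p = 0.0558, 0.101 and 0.121 for replicates 1 to 3) and without replicate 2 (1.63, adjusted p = 0.138) or 3 (1.41, adjusted p = 0.188) of Thy+6C3-CD105+. The keratinocyte markers averaged 7.17 to 8.03 in Thy+6C3-CD105-, the population with the highest Igfbp6 mean (9.48), and 5.70 to 6.38 in the others. In Thy+6C3-CD105+ they averaged 5.92 to 6.04, while the Igfbp6 mean there was 9.04 (difference from 9.48, adjusted p = 0.593, limma). The tendon markers averaged 10.87 to 11.41 in both Thy+ populations and 9.18 to 10.55 elsewhere. The part of either list in the Igfbp6 level was not tested.

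Igfbp5, a binding protein that is stored in bone matrix, was lowest in the Thy-6C3- populations, which read 10.63, 10.92 and 10.95 without CD105 and 10.85, 11.21 and 10.94 with it. Thy+6C3-CD105- arrays read 11.60, 11.44 and 12.31 and Thy+6C3-CD105+ arrays 11.80, 11.45 and 11.60, all above the Thy-6C3- ones. The 6C3+ arrays read 11.47, 11.61 and 12 with CD105 and 11.65, 11.09 and 11.29 without it. Among CD105+ cells the Thy+ population differed from the 6C3+ one by -0.07, with a 95% interval from -0.53 to 0.38.

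Igfbp5 rose by 0.95 ± 0.22 with Thy among CD105- cells (1.93-fold, adjusted p = 0.00752, limma), and the step among CD105+ cells was 0.62 ± 0.22 (adjusted p = 0.117). On the values as deposited the first of these was 0.61 (adjusted p = 0.0507), with a common median 0.46 (adjusted p = 0.132), and with only the compared populations fitted its adjusted p was 0.0611. The F-test was lost without replicate 1 of Thy-6C3-CD105- (adjusted p = 0.0665). The dimmer Igfbp5 probe set, 1422313_a_at, gave 0.93 ± 0.27 in the Thy step among CD105- cells (adjusted p = 0.031) and 0.05 ± 0.27 among CD105+ cells (adjusted p = 0.979).

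Igfbp3, the main carrier of circulating IGF, ranged from 10.26 to 11.34 over the neonatal arrays. Its 3 arrays in Thy+6C3-CD105+ cells were close together at 11.33, 11.34 and 11.27, and its Thy step there was 0.68 ± 0.26 (95% interval 0.13 to 1.22, adjusted p = 0.163). Igfbp4, a carrier known mainly as an inhibitor of IGF action, ranged from 12.35 to 13.19, with Thy steps of 0.43 ± 0.19 and 0.30 ± 0.19 among CD105+ and CD105- cells and adjusted p values of 0.269 and 0.275. All 6 of its probe sets gave positive estimates in both Thy steps, but only 1423757_x_at passed, by 1.15 ± 0.34 among CD105- cells (adjusted p = 0.0341). One Thy+6C3-CD105- array, replicate 3, was low in both genes, at 10.38 for Igfbp3 and 12.36 for Igfbp4, and without it Igfbp4 passed the F-test (adjusted p = 0.0388).

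Igfbp7, a related protein that binds IGFs weakly, ranged from 12.60 to 13.75. Its mean was 13.48 ± 0.13 (SD, n = 3) in Thy-6C3+CD105+ cells and 12.87 ± 0.13 in Thy-6C3-CD105+ cells, a 6C3 step of 0.61 ± 0.23 (adjusted p = 0.402). Replicate 3 of Thy-6C3-CD105- read 13.69 against 12.75 and 12.60, and without it Igfbp7 passed the F-test (adjusted p = 0.0423). The probe sets disagreed. 1423585_at passed the F-test (adjusted p = 0.0399) and rose by 1.02 ± 0.22 with 6C3 among CD105- cells (adjusted p = 0.0202, where 1.54% of probe sets passed), and 1437804_at rose by 1.07 ± 0.31 with Thy among CD105- cells (adjusted p = 0.0351). The brightest one did neither, and correlations with it were between -0.03 and 0.49.

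**Figure D2:**
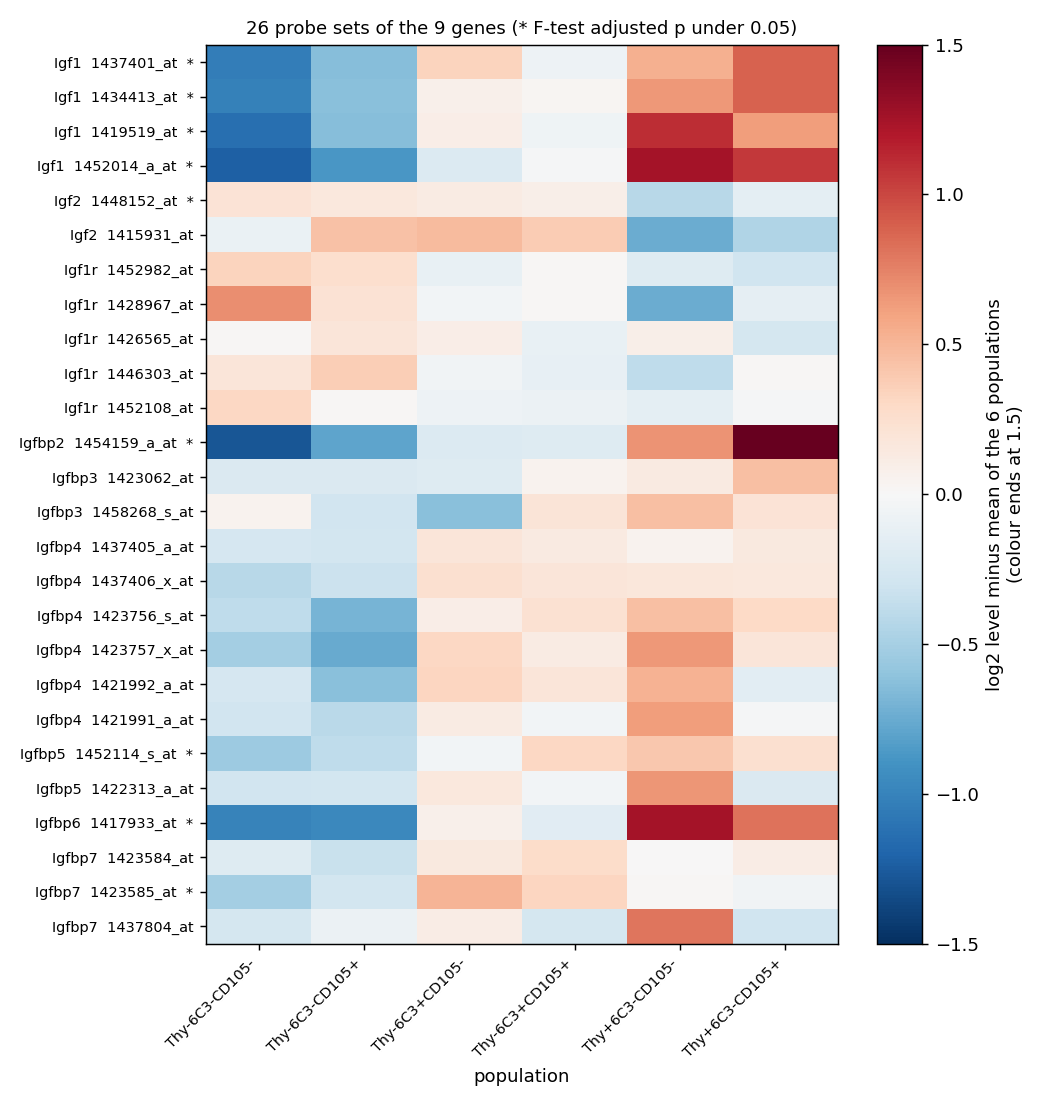
Mean log2 level of each of the 26 probe sets in each population minus the mean of the 6 populations (colour), with an asterisk at the 9 that passed the F-test. The 4 probe sets of Igf1 share their pattern, low in Thy-6C3- and high in Thy+ cells, while those of Igfbp7 do not.

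Counted by probe set, 9 of the 26 passed the F-test, where 6.04% of all probe sets did. They were all 4 of Igf1, 1 of 2 for Igf2 and Igfbp5, the single ones of Igfbp2 and Igfbp6, and 1 of 3 for Igfbp7. Probe sets of 1 gene share their RNA and are no replicates.

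Over the comparisons, the Thy step among CD105- cells had the most calls. There 6 of the 9 members passed, against 18% of all genes, with 4 higher (10.5% of genes) and 2 lower (7.45%). The arrays of the compared populations did not overlap in 6 members (34.7% of genes), and the median change was 0.35 for the members and 0.13 for all genes. The Thy step among CD105+ cells had 3 calls, all higher (6.66% of genes passed, 4.03% upward), and no overlap of arrays in 8 members (26.2% of genes), with a median of 0.62 for the members and -0.02 for all genes. Leaving out replicate 3 of Thy+6C3-CD105-, an array outside that comparison, raised the 3 to 6. These comparisons use different arrays, and no member's Thy step differed between them by the interaction test (0 of 9 passed in limma against 0.269% of all genes, and 0 of 9 against 16.7% of genes had an unadjusted p under 0.05).

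The mean of the poly-A spike-in controls was above 5.90 on 11 neonatal arrays (high set) and below it on the other 7 (low set). Thy-6C3-CD105- had 1 high and 2 low arrays, and every other population had 2 high and 1 low. Within the high and the low set, with as few as 1 array per population and no test, the Thy step among CD105+ cells was 1.72 and 1.15 for Igf1, 2.88 and 2.01 for Igfbp2 and 2.19 and 0.93 for Igfbp6. Among CD105- cells it was 1.22 and 1.87 for Igf1, 2.05 and 2.12 for Igfbp2, 2.44 and 1.41 for Igfbp6 and 1.24 and 0.66 for Igfbp5. For Igf2 it was -0.62 and -0.56 there, and for Igf1r -0.45 and -0.40. The 6C3 step of Igf1 among CD105- cells was 1.06 and 1.57, Thy+ exceeded 6C3+ cells with CD105 by 2.33 and 1.36 for Igfbp2, and the Igf2 difference without CD105 was -0.55 and -0.51. All these called changes had the same direction in both sets. That was fixed beforehand, because in each of them the arrays of the compared populations did not overlap. Only the sizes are informative here, and the part of the spike-in sets in them was not tested.

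The 6C3 steps carried fewer calls, with 0 of 9 passing among CD105+ cells (limma, 1.36% of all genes) and 1 of 9, Igf1, among CD105- cells (2.74%). At an unadjusted p under 0.05 the former step held 4 of the 9 members and 7.61% of all genes, and the latter 6 of the 9 and 13.9%. By the same measure the Thy steps held 8 members and 16.1% of genes with CD105, and 6 and 35.5% without it. Without replicate 3 of Thy+6C3-CD105-, 1 member passed the step among CD105+ cells. The interaction of 6C3 with CD105 passed for no member in limma and 0% of genes, and 1 member and 2.98% of genes had an unadjusted p under 0.05. The 6C3 steps share their antigen-negative populations with the Thy steps. For Igfbp5 the estimates among CD105+ cells were 0.69 ± 0.22 with 6C3 and 0.62 ± 0.22 with Thy, and for Igfbp4 0.41 ± 0.19 and 0.43 ± 0.19, none of which passed.

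**Figure D3:**
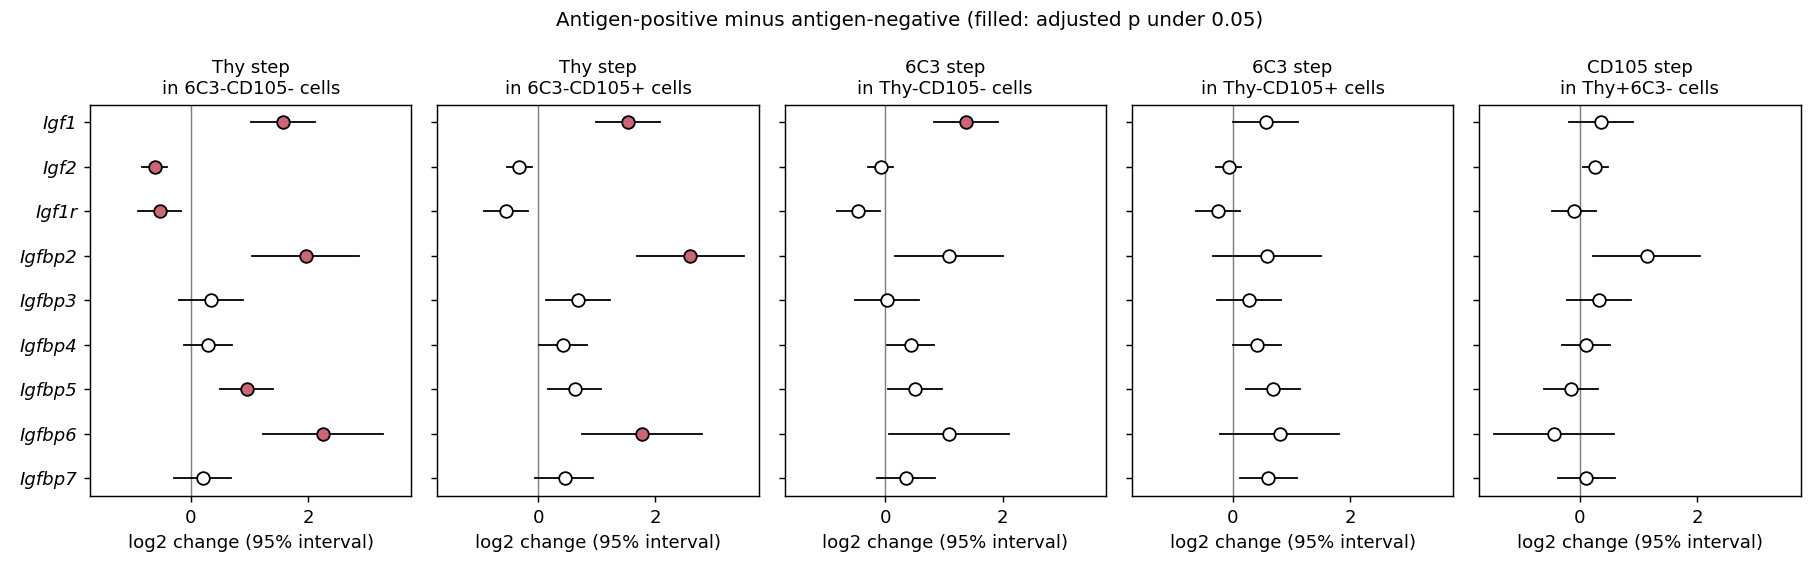
Log2 change of each gene (antigen-positive minus antigen-negative, with 95% intervals) in 5 steps, with filled points where the adjusted p was under 0.05. The Thy steps hold 6 and 3 filled points, the 6C3 steps 1 and 0 and the CD105 step of Thy+ cells 0.

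CD105 alone changed no member in limma at an adjusted p under 0.05, in Thy-6C3-, Thy+6C3- or Thy-6C3+ cells, where 0.0055%, 1.02% and 0% of genes passed. Eng, the gene of CD105 itself, passed in none of these steps either. At an unadjusted p under 0.05 these steps held 0, 2 and 0 members and 1.75%, 22.4% and 2.74% of genes. The intervals still allow sizeable changes: for Igfbp2 they ran from -0.42 to 1.42, 0.22 to 2.05 and -0.91 to 0.92, and for Igfbp6 from -0.99 to 1.05, -1.47 to 0.58 and -1.27 to 0.77. For Igf2, whose probe set lay near the top of the scale, they ran from -0.25 to 0.18, 0.05 to 0.48 and -0.24 to 0.18.

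Set against each other at the same CD105 state, Thy+6C3- and Thy-6C3+ cells differed in 1 member each: Igfbp2 among CD105+ cells (2.59% of genes passed) and Igf2 among CD105- cells (2.24%). Igf1 was 0.97 ± 0.26 higher in the Thy+ cells with CD105 (adjusted p = 0.0631) and 0.21 ± 0.26 higher without it (adjusted p = 0.701).

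The members did not all vary together. Over the 18 arrays Igf1 correlated with Igfbp2 at r = 0.77 and with Igf1r at r = -0.81, and Igf2 with Igfbp6 at r = -0.86, the most negative of the 36 pairs. Taken as deviations from the population means, Igf1 and Igfbp2 gave r = 0.05, Igf1 and Igf1r -0.16, Igf2 and Igfbp6 -0.77, and Igfbp3 and Igfbp4 0.90. These values describe arrays that share a population, an amplification and a scaling, and no test was made.

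The genes most like each member over the 18 arrays, among those above the median level, were as follows. Igf1 was closest to Ak3 (r = 0.964), which encodes a mitochondrial adenylate kinase, then to Filip1l and Anxa1. Igf2 was closest to Fry (0.973), to Etv5 (0.962), an ETS transcription factor, and to P3h2 (0.950), a collagen prolyl hydroxylase. Igfbp2 was closest to Col4a1 (0.951) and Col18a1 (0.947), which encode basement membrane collagens, and Dtx4. Igfbp3 was closest to Nid1 (0.918), a basement membrane linker. Igf1r was closest to Arhgef1 (0.920), Igfbp4 to Gucd1 (0.908), Igfbp5 to Mprip (0.940), Igfbp6 to Cavin3 (0.931) and Igfbp7 to Plat (0.835), the tissue plasminogen activator.

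Of 45 other genes of the IGF pathway, 40 were measured and 35 of these lay above the median level; the other 5 were not analysed here. The F-test passed 7 of the 40 (10.1% of all genes, and 14.4% of genes above the median level). In the Thy step among CD105- cells 10 of the 40 passed, 3 higher and 7 lower (18% of all genes). The median was -0.30 for the 40 and 0.13 for all genes. Irs1, the docking protein that links the receptor to PI3 kinase, fell there by 1.25 ± 0.20 (adjusted p = 0.000418, limma). Its arrays read 11.60, 12.01 and 11.84 in Thy-6C3-CD105- cells and 10.85, 10.61 and 10.25 in Thy+6C3-CD105- cells. It also fell with 6C3 among CD105- cells, by 1.27 ± 0.20 (adjusted p = 0.000912). Among CD105+ cells its Thy step of -0.66 ± 0.20 (adjusted p = 0.0539) and 6C3 step of -0.58 ± 0.20 (adjusted p = 0.272) did not pass. With Thy among CD105- cells Gab1, another adaptor, fell by 1.12 ± 0.18 (adjusted p = 0.000499). Foxo3, a transcription factor held in check by AKT, fell by 0.93 ± 0.30 (adjusted p = 0.0392). Among CD105+ cells their Thy steps were -0.44 ± 0.18 (adjusted p = 0.205) and -0.84 ± 0.30 (adjusted p = 0.117). Named after their values were seen, the IGF2 clearance receptor Igf2r fell by 0.79 ± 0.19 (adjusted p = 0.0106) and the insulin receptor Insr by 0.78 ± 0.26 (adjusted p = 0.0481) in the same step. Chosen in the same way, Pik3r2, a regulatory subunit of PI3 kinase, rose there by 1.03 ± 0.27 (adjusted p = 0.0173) and Igf2bp3, an RNA-binding protein named for its binding of Igf2 mRNA, by 1.06 ± 0.31 (adjusted p = 0.0281). None of these genes named after their values were seen passed the F-test (adjusted p = 0.056 to 0.156). Nor did any pass the Thy step among CD105+ cells (adjusted p = 0.105 to 0.918, limma). Igf2bp3 had the opposite sign there (-0.14 ± 0.31), and the others had the same sign.

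Among the proteases that cut binding proteins and their inhibitors, 4 of 6 genes passed the F-test (10.1% of all genes, 14.4% above the median level). Adam12 (adjusted p = 0.0761) and Stc2 (0.219) did not. Pappa2, which cleaves IGFBP3 and IGFBP5, read 7.32, 6.97 and 7.11 in Thy+6C3-CD105- cells, below every other neonatal array, and 8.76, 8.87 and 9.38 in Thy-6C3-CD105- cells. It fell by 1.87 ± 0.22 with Thy among CD105- cells (adjusted p = 2.26e-05, limma) and was 1.20 ± 0.22 higher with CD105 within Thy+ cells (adjusted p = 0.0096). Pappa, which cleaves IGFBP4, was also lowest there, at a mean of 6.46 ± 0.60 against 7.51 to 8.08 elsewhere, and passed the F-test with an adjusted p of 0.0454 but no single step.

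Stc1, which encodes stanniocalcin-1, an inhibitor of these proteases, was lower in Thy+ than in 6C3+ cells. Its arrays read 9.38, 9.22 and 9.11 in Thy-6C3+CD105+ cells and 7.69, 7.30 and 7.52 in Thy+6C3-CD105+ cells, a difference of -1.73 ± 0.25 (adjusted p = 0.000346, limma). Among CD105- cells the difference was -1.51 ± 0.25 (adjusted p = 0.00203). Htra1, a secreted serine protease that also cuts binding proteins, rose with Thy and with 6C3 at either CD105 state, by 0.43 to 0.80. On all 6 Thy-6C3- arrays Htra1 lay between 12.46 and 12.62, and on the others between 12.89 and 13.37.

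**Figure D4:**
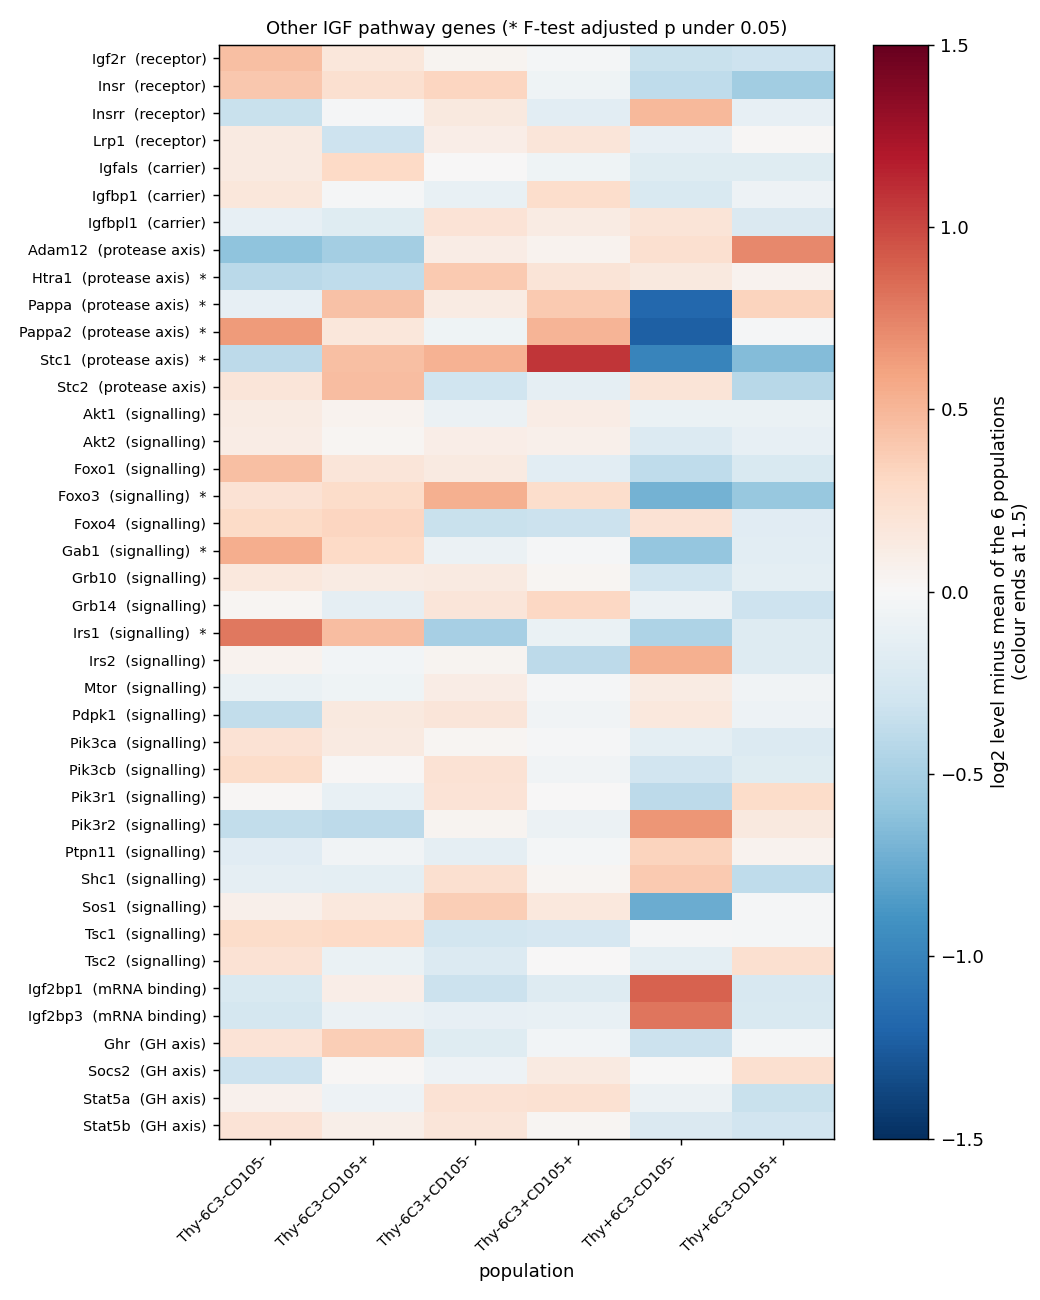
Mean log2 level of 40 other IGF pathway genes in each population minus the mean of the 6 populations (colour), ordered by role, with an asterisk where the F-test passed. Pappa2 and Stc1 have their lowest means in Thy+6C3-CD105- cells, at 7.13 and 7.16, and Irs1 has its highest in Thy-6C3-CD105- cells, at 11.82.

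The single adult array, labelled Thy+6C3+CD105+, gives levels without a test. Its source field names sternum and ear and its tissue field limbs, so age, site and antigens differ from the neonatal arrays and cannot be told apart. Igfbp3 read 4.17 and Igfbp2 5.27, where the lowest neonatal arrays read 10.26 and 7.34. Igf2 read 12.46 (lowest neonatal array 13.13) and Igfbp4 11.90 (12.35). Igf1r at 9.35 lay just below the lowest neonatal value of 9.39, and Igfbp5 at 10.63 was level with the lowest neonatal array to 2 decimals. Igf1 at 10.69, Igfbp6 at 9.35 and Igfbp7 at 13.48 lay within the neonatal range.

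**Figure D5:**
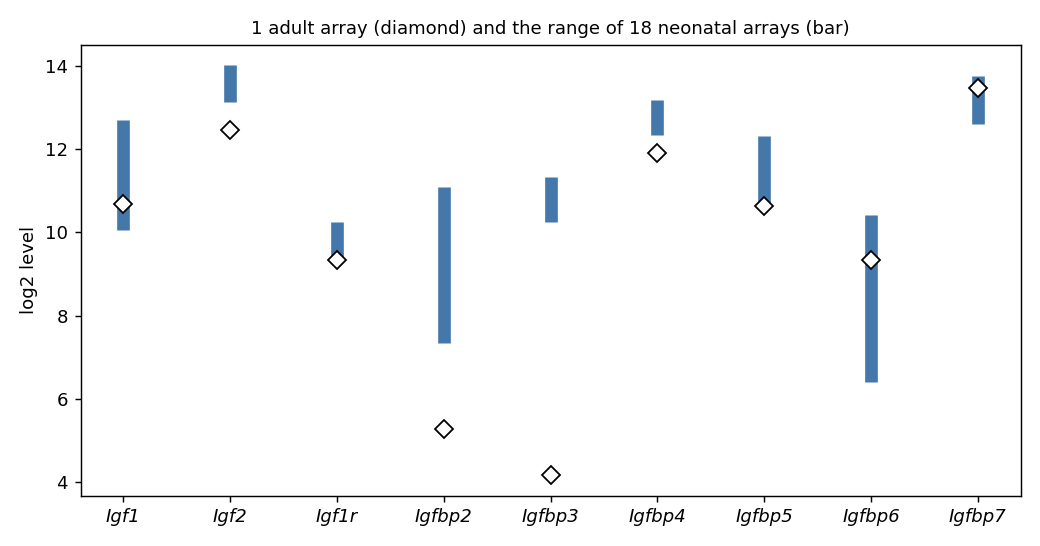
Log2 level of each gene on the adult array (diamond) and the range over 18 neonatal arrays (bar). The diamonds of Igfbp2 and Igfbp3 lie at 5.27 and 4.17, below the neonatal ranges.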

How the data were processed

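Expression of sorted neonatal skeletal cells was measured on Affymetrix Mouse 430 2.0 arrays, scanned with GCOS 1.1.1, per the labels. The deposited values are log2 levels, 2.55 to 14.6, and the step from scans to values that the authors used is not stated in the labels. Because array medians differed (5.60 to 6.02), values were quantile normalized over 19 arrays. A gene was read from its brightest probe set on average in the neonatal samples, among 34945 probe sets with 1 symbol (932 had several, 9160 none); 64 control probe sets were left out. Arrays were grouped by the population field. limma 3.58.1 in R 4.3.3 fitted 1 mean per population over 18 arrays (12 residual degrees of freedom, eBayes with a trend, two-sided tests); the adult array entered no test. The fit was tested on simulated arrays. Arrays carry no counts, and 3 per population limit the precision; the arrays of 1 population correlated at 0.938 to 0.994.

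The members and gene lists were chosen with earlier results of these data known. Named genes were the members, the pathway genes that passed the F-test, up to 3 genes most like each member, the sorted antigens and genes of the marker lists. Some pathway genes that did not pass the F-test are named as well. Igf2r, Insr, Foxo1, Pik3r2 and Igf2bp3 were chosen after their values were seen, and Adam12 and Stc2 are the rest of the protease group. Alternatives changed the scaling, gene set, probe sets, variance model, weights, blocks, grouping and arrays. Promoters are from RefSeq (GRCm38.p6). Figures used matplotlib 3.10.9 in Python 3.11.15.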

Additional observations from a re-analysis of the deposited data

Results flagged for a closer look

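The dimmer Igf1r probe set 1428967_at read 9.31 on the adult array, which entered no comparison, above all 18 neonatal arrays, while the brightest Igf1r probe set read 9.35 there, below all of them. With 1 adult array there is no test, and the cause was not tested.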

How the results depend on the processing

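Each called change of a member kept its direction under all alternatives run. Counts of called members moved by over 1.5 times as follows. With a common median, the 6C3 step among CD105- cells had 0. With genes above the median level only, the Thy step among CD105+ cells had 5. With the mean of the probe sets of a gene, Thy+ against 6C3+ cells with CD105 had 2. Without the probe sets whose names end in _a_at, _s_at or _x_at, none is left for Igfbp2, Igfbp4 and Igfbp5, so of the 6 members left the F-test had 3 and that comparison 0 by construction. With array weights the F-test had 8, the Thy step among CD105+ cells 8, the 6C3 step among CD105+ cells 2, the CD105 step in Thy+ cells 1 and Thy+ against 6C3+ cells with CD105 3. With a block for the spike-in sets, the Thy step among CD105+ cells had 6, the 6C3 step among CD105- cells 2, the CD105 step in Thy+ cells 1 and the probe sets 14 (added after seeing the data). Grouped by title, a single array was left in Thy-6C3+CD105-, and the counts of its comparisons are not given. With the compared populations only, the Thy step among CD105+ cells had 6, the 6C3 steps 1 and 0, and Thy+ against 6C3+ cells 2 with and 0 without CD105. The cause was not tested. Without 1 array, counts ranged from 4 to 6 for the F-test, 2 to 6 and 5 to 6 for the Thy steps with and without CD105, 0 to 1 for the 6C3 step with CD105, 0 to 2 for Thy+ against 6C3+ cells with CD105 and 7 to 11 for the probe sets. Replicate numbers did not pair the arrays: same-numbered pairs correlated at a median of 0.03 (-0.56 to 0.67). The fit with a replicate block had 2 members for Thy+ against 6C3+ cells with CD105, and Igf1r was at -0.53 in the Thy step among CD105- cells (adjusted p = 0.052).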
